A study of Mus musculus with 18 samples.

Results

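The genes described here carry out the uptake and binding of long-chain fatty acids in mouse liver: Cd36, Slc27a1, Slc27a2, Slc27a4, Slc27a5, Fabp1 and Lpl. They were chosen by gene symbol, with earlier results of these data known but by a rule that uses no measured value, and are 7 of the 31099 loci with a gene identifier in the count files. A total of 8 count entries carry these 7 symbols, because Slc27a2 is listed at a pair of loci on opposite strands. Liver mRNA was sequenced from wild type (Ppara+/+, here WT) and Ppara-null (Ppara-/-, here KO) mice, all 8 weeks old and of a mixed C57BL/6 and SV129 background. The WT control and KO control groups ate normal chow, the WT Wy and KO Wy groups chow with 0.1% Wy14,643, and the WT fenofibrate and KO fenofibrate groups chow with 0.5% fenofibrate, in each case for 48 hours. The 6 groups held 3 libraries each, made from 3 to 5 pooled livers, so the spread given below is between pools and not between animals. The KO is the whole-animal genotype given by the labels, and the labels do not describe the deleted part of the gene.

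PPARα, the product of Ppara, is a nuclear receptor that is activated by fatty acids and by drugs such as Wy14,643 and fenofibrate, and it binds DNA together with RXR at direct repeats of the hexamer AGGTCA spaced by a single base. In liver it is known for switching on genes of fatty acid oxidation and transport. Some of the fatty acids that reach the hepatocyte have been released from triglyceride in lipoproteins by a lipase such as Lpl. Fatty acids are moved across the membrane with the help of Cd36, a scavenger receptor, and of the Slc27a family, which are transport proteins with acyl-CoA synthetase activity. Inside the cell they are carried by Fabp1, the liver fatty acid binding protein.

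Promoter windows from RefSeq (GRCm38.p6, the same build as mm10) were searched because of this known binding preference. Each window runs from 250 bases before to 50 bases after an annotated gene start, and 5 of the 7 genes had 1 or more windows, 7 in all. The motif was the hexamer AGGTCA, then any base, then AGGTCA again, read on both strands. The stretches that follow hold the closest match in the windows of Fabp1, Cd36 and Slc27a2, the genes with the fewest mismatches, written 5′ to 3′ on the strand of the gene. Capitals mark the 13 matched bases.
Fabp1: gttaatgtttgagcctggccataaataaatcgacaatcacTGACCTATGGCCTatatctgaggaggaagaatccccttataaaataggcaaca
Cd36: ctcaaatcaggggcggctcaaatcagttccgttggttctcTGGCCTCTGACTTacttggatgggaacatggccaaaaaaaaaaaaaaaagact
Slc27a2: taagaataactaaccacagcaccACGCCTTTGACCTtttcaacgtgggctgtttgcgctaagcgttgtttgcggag

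In each of these 3 windows the match lies on the strand opposite to the gene, and distances are counted from the RefSeq start to which the window belongs. The Fabp1 match, at chr6:71199812-71199824 and 67 to 55 bases before its RefSeq start on the plus strand, has 1 mismatch, T4C. Positions are counted from 1 at the 5′ end of the motif, with the motif base first. A match with at most 1 mismatch was held by 0.554% of all 32851 windows. The Cd36 match, at chr5:17835947-17835959 and 63 to 51 bases before its RefSeq start on the minus strand, has 2 mismatches, G2A and T11C, and 3.86% of all windows held a match at least as close. The Slc27a2 match, at chr2:126552797-126552809 and 227 to 215 bases before its RefSeq start on the plus strand, has 3 mismatches, which 24.6% of windows reached. The starts used for Cd36 and Slc27a2 and both matches lie inside the longer spans that the count files give for these genes, so neither match lies upstream of its counted locus. The Fabp1 start used also lies inside its counted span, which begins at chr6:71199827, just after its match. The Slc27a2 match lies within the bases that its locus shares with the minus-strand locus given with its values. That match keeps 1 exact AGGTCA hexamer. On either strand the Fabp1 window held 2 such hexamers, the Cd36 window 1 and the Slc27a4 and Slc27a1 windows 0. Of all windows, 16.3% held such a hexamer. The closest match had 5 mismatches in the Slc27a4 window and 4 to 5 in the 3 Slc27a1 windows. A match describes the letters of a window and shows neither binding nor a cause of any change given here.

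Libraries held 68.9 to 151 M counts, of which 46.0% to 71.4% fell on 23 loci of the major urinary protein (Mup) genes. Levels are therefore given as CPM, the count per 1000000 counts of a library size scaled by the TMM method, and for the 7 genes the value under plain library totals is given where it ends a call. In WT the median log2 fold change of all genes was -0.02 with Wy and 0.01 with fenofibrate, and under plain totals it was 0.79 and 0.82. Ppara held 5214 to 9045 counts in each WT library and 1134 to 2328 in each KO library, and on control diet its log2 difference between KO and WT was -1.96 ± 0.19 (SE, adjusted p = 7.3e-07, edgeR quasi-likelihood F-test). All 8 hepatocyte markers were detected in every group, and their summed level was 46119 to 47775 CPM in WT control. It was 21563 to 25588 CPM in WT Wy, 20266 to 21717 CPM in WT fenofibrate and 34853 to 54212 CPM over the KO libraries. The largest parts were Alb and Serpina1a, with means of 26885 and 11286 CPM in WT control and 14737 and 3123 CPM in WT Wy. Hnf4a averaged 148, 165 and 142 CPM in WT control, WT Wy and WT fenofibrate, and Apob 725, 688 and 799 CPM. How the marker calls depend on the scaling is given with Slc27a5. Library 3 of WT Wy held 308 counts of Xist against at most 1 in any other library. Without that library all 7 genes were still called in WT Wy against WT control, with log2 fold changes of 4.74 for Cd36, 5.76 for Slc27a1, 1.14 for Slc27a2, 1.85 for Slc27a4, -1.01 for Slc27a5, 2.13 for Fabp1 and 2.87 for Lpl. All 7 were also called without it in KO against WT under Wy and in the interaction with Wy, where all 7 were called with it.

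Wy and fenofibrate raised 6 of the 7 genes and lowered Slc27a5 in WT liver. The calls of the 6 rises held under plain library totals, and those of Slc27a5 did not. The rises with Wy ran from 2.20-fold for Slc27a2 to 56.0-fold for Slc27a1, and those with fenofibrate from 2.08-fold to 38.2-fold for the same pair of genes. In KO liver no gene was called with Wy, and Lpl alone was called with fenofibrate. On control diet Cd36, Slc27a2, Fabp1 and Lpl were lower in KO than in WT. A gene was called at an adjusted p under 0.05 over 14241 genes tested by edgeR's quasi-likelihood F-test, and all 7 passed the filter on low counts. With 3 pools against 3, an exact permutation test cannot go below p = 0.1, so these p-values rest on the spread shared across the fit of 18 libraries.

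These counts stand beside the share of all genes called in the same comparison. With Wy in WT, 6 genes were higher and 1 lower, where 39.2% of all genes were called and 20.2% were called higher. The median log2 fold change was 2.16 over the 7 genes and -0.02 over all genes. With fenofibrate in WT the counts were again 6 and 1, where 36.9% of all genes were called and 19.3% were called higher, with medians of 1.82 and 0.01. In KO, 0 of 7 genes were called with Wy, where 0.239% of all genes were and 0.133% were higher. At an unadjusted p under 0.05 edgeR gave 2 genes there, and DESeq2 called 0. With fenofibrate in KO 1 of 7 was called, where 1.54% of all genes were and 0.997% were higher. The libraries of the groups compared did not overlap for 7 of 7 genes with either drug in WT, which held for 55.7% of all genes with Wy and 48.7% with fenofibrate. In KO they did not overlap for 2 of 7 genes with either drug, which held for 22.1% and 16.2% of all genes. Both diets were compared with the same control libraries in each genotype, and the 2 drugs were fed at different doses, so their values are given side by side without a test between them.

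**Figure D1:**
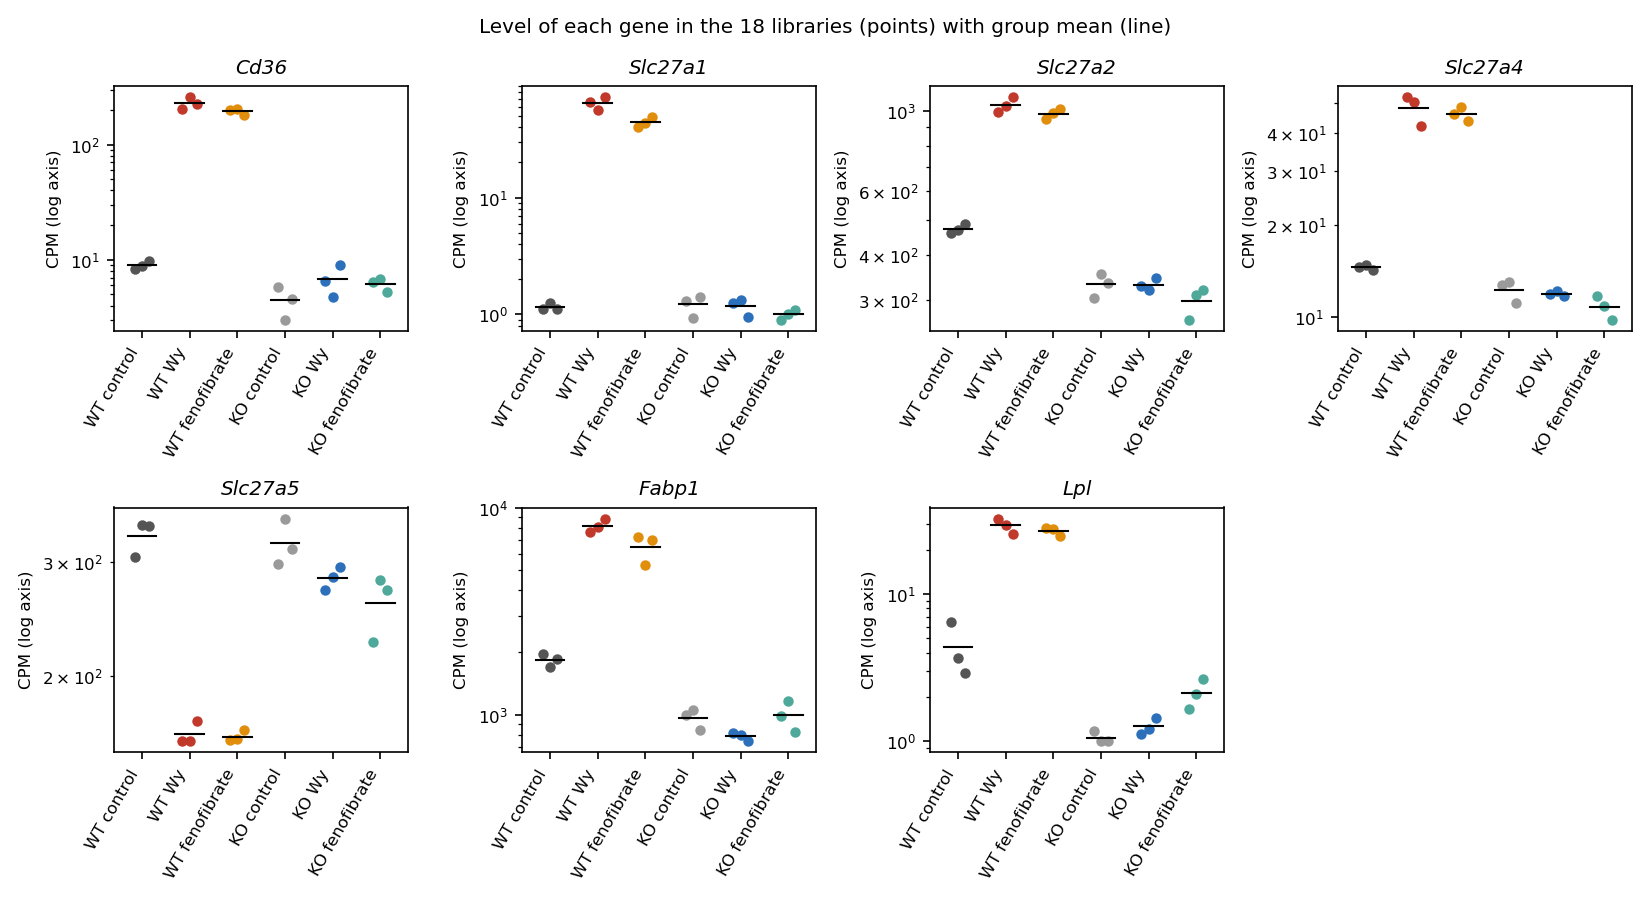
Level of each of the 7 genes in CPM on a log axis, in the 3 libraries of each of the 6 groups (points) with the group mean (line). The WT Wy and WT fenofibrate libraries lie above all others for 6 genes and below all others for Slc27a5.

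Lpl, the lipase that releases fatty acids from circulating triglyceride, is known to be expressed at a low level in adult liver. It spans chr8:68880491-68907448 on the plus strand (mm10). In WT control its 3 libraries held 6.5, 3.68 and 2.89 CPM, against 32.6, 29.7 and 25.6 CPM in WT Wy and 28, 27.7 and 25 CPM in WT fenofibrate. The KO control libraries held 1.17, 1.01 and 0.999 CPM, the KO Wy libraries 1.13, 1.22 and 1.44 CPM, and the KO fenofibrate libraries 1.67, 2.10 and 2.64 CPM. All treated WT libraries thus lay above all WT control libraries, and all WT control libraries above all KO libraries. Library 1 of WT control was the highest of its group.

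In WT, Lpl rose 6.69-fold with Wy (log2 fold change 2.74 ± 0.22 (SE), adjusted p = 9.61e-09, edgeR) and by 2.62 ± 0.22 on the log2 scale with fenofibrate (adjusted p = 1.91e-08, edgeR). In KO it rose 2.02-fold with fenofibrate (log2 fold change 1.01 ± 0.24, adjusted p = 0.04, edgeR), and its value with Wy was 0.24 (adjusted p = 0.666). The KO call was at the threshold: leaving out single libraries ended it in 11 of 18 cases, with an adjusted p of up to 0.165 without library 2 of KO control, and a fit of the compared groups alone gave an adjusted p of 0.107 (edgeR). The libraries whose omission ended it were all 3 of WT Wy, libraries 2 and 3 of WT fenofibrate, all 3 of KO control, libraries 1 and 2 of KO Wy and library 3 of KO fenofibrate. On control diet Lpl was 4.12-fold lower in KO than in WT (log2 -2.04 ± 0.23, adjusted p = 6.99e-06, edgeR).

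Adipocytes and muscle also make Lpl, and markers of both were measured. Of 7 adipocyte markers 3 were detected, with Lep, Retn, Fabp4 and Lipe at 0, and their summed level reached 0.0513 CPM in WT control and 0.0236 CPM in KO. It was 0.251 to 0.358 CPM in WT Wy and 0.115 to 0.373 CPM in WT fenofibrate. Only 1 of the 7, Cfd, passed the filter on low counts. It was called higher in WT, with log2 fold changes of 3.73 with Wy and 3.08 with fenofibrate, so the sums can rest on this gene. Of the 4 markers at 0, Fabp4 and Lipe lie inside another counted locus, so they are listed at 0 and may not have been measured. Of 6 striated muscle markers 3 were detected, at a sum of at most 0.0626 CPM in any library. Kupffer cells, the macrophages of the liver, can express Lpl as well, and their 10 markers summed to 79.0 to 86.9 CPM in WT control and 85.7 to 144 CPM in KO. In the treated WT livers they summed to 47.4 to 51.0 CPM (Wy) and 45.5 to 58.3 CPM (fenofibrate). These lower sums depend on the scaling, because under plain library totals none of these markers was called in WT with either drug. Their log2 fold changes on that scale ran from -0.15 (Adgre1) to 0.85 (Marco) with Wy. With fenofibrate they ran from 0.03 (Timd4) to 1.19 (Marco). In whole liver, fewer cells of a type and less RNA per cell cannot be told apart, and the part of these cells in the Lpl values was not tested.

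Cd36, a membrane receptor that binds long-chain fatty acids, spans chr5:17781690-17888959 on the minus strand. Its WT control libraries held 8.25, 8.79 and 9.76 CPM, against 205, 259 and 227 CPM in WT Wy and 200, 203 and 181 CPM in WT fenofibrate. The KO control libraries held 5.82, 3.01 and 4.55 CPM, the KO Wy libraries 6.59, 4.78 and 9.09 CPM, and the KO fenofibrate libraries 6.41, 6.79 and 5.26 CPM. The treated WT groups stood apart from every other library, while the KO groups overlapped each other and KO Wy reached into the range of WT control.

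Cd36 rose 25.8-fold with Wy in WT (log2 fold change 4.69 ± 0.23, adjusted p = 1.45e-11, edgeR) and by 4.44 ± 0.23 on the log2 scale with fenofibrate (adjusted p = 3.49e-11, edgeR). In KO the log2 values were 0.61 ± 0.21 with Wy and 0.46 ± 0.21 with fenofibrate, and neither passed (adjusted p = 0.206 and 0.296, edgeR). Their 95% intervals of 0.17 to 1.05 and 0.03 to 0.90 lay above 0 before adjustment over all genes. On control diet Cd36 was 2.00-fold lower in KO than in WT (log2 -1.00 ± 0.21, adjusted p = 0.00338, edgeR). Endothelial cells and Kupffer cells also express Cd36. Endothelial markers, 10 of 10 detected, summed to 73.3 to 98.7 CPM in WT control, to 73.3 to 80.5 CPM with Wy and to 69.7 to 89.6 CPM with fenofibrate. These ranges overlapped, with medians of 97.5, 77.5 and 84.2 CPM. Of the 10 markers 1 was called higher and 3 lower with Wy, and 1 higher and 2 lower with fenofibrate, where 39.2% and 36.9% of all genes were called. The lower ones, Clec4g and Fcgr2b with both drugs and Tek with Wy, had a positive sign under plain library totals. The part of these cells in the Cd36 values was not tested.

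Slc27a1, also called FATP1, is best known as the transporter of muscle and fat. It spans chr8:71568676-71587304 on the plus strand. In WT control it was barely above 1 CPM, at 1.11, 1.26 and 1.11 CPM, against 65.9, 56.4 and 72.6 CPM in WT Wy and 40.2, 43.7 and 49.1 CPM in WT fenofibrate. The KO libraries held 1.29, 0.935 and 1.42 CPM on control diet, 1.24, 1.33 and 0.944 CPM with Wy, and 0.899, 1.01 and 1.09 CPM with fenofibrate. The 9 KO libraries and the 3 WT control libraries all lay between 0.899 and 1.42 CPM.

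By p-value Slc27a1 ranked 5 of the 14241 genes tested with either drug in WT. Its log2 fold change was 5.81 ± 0.17 with Wy (adjusted p = 1.75e-14, edgeR) and 5.25 ± 0.16 with fenofibrate (adjusted p = 5.99e-14, edgeR). In KO the values were -0.05 with Wy and -0.28 with fenofibrate (adjusted p = 0.908 and 0.433, edgeR), with 95% intervals of -0.39 to 0.29 and -0.62 to 0.06. On control diet KO and WT differed by 0.07 (95% interval -0.27 to 0.40, adjusted p = 0.874, edgeR).

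Slc27a2, or FATP2, is a main hepatic transporter that also activates very long-chain fatty acids in peroxisomes. It spans chr2:126552407-126588243 on the plus strand. The WT control libraries held 460, 468 and 486 CPM, against 993, 1031 and 1092 CPM in WT Wy and 950, 989 and 1009 CPM in WT fenofibrate. The KO libraries held 304, 355 and 335 CPM on control diet, 327, 319 and 345 CPM with Wy, and 264, 310 and 319 CPM with fenofibrate. The treated WT groups overlapped each other and lay above WT control, which lay above all KO libraries.

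The log2 fold change of Slc27a2 in WT was 1.14 ± 0.09 with Wy (adjusted p = 5.26e-09, edgeR) and 1.06 ± 0.09 with fenofibrate (adjusted p = 1.55e-08, edgeR). In KO it was -0.00 and -0.15 (adjusted p = 0.991 and 0.414, edgeR). On control diet it was 1.42-fold lower in KO (log2 -0.51 ± 0.09, adjusted p = 0.000473, edgeR), a call that plain library totals ended (-0.18, adjusted p = 0.39), where the median of all genes moved to 0.32. The other locus named Slc27a2 lies at chr2:126521202-126553662 on the minus strand, has the coordinates of the GENCODE M21 lincRNA Gm26697, and shares 1256 bases with the plus-strand gene, at chr2:126552407-126553662. In WT its mean level was 41.9 CPM on control diet, 94.6 CPM with Wy and 94.9 CPM with fenofibrate, and its counts were 7.90% to 10.3% of those of the plus-strand locus over all 18 libraries. Its log2 fold changes were 1.17 ± 0.09 with Wy and 1.18 ± 0.09 with fenofibrate in WT. How the authors' counting treated reads in the shared bases is not given in the sources used here, so values of the minus-strand locus are uncertain.

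Slc27a4, or FATP4, is a long-chain acyl-CoA synthetase of internal membranes that is best known from gut and skin. It spans chr2:29802634-29817522 on the plus strand. The WT control libraries held 14.6, 14.8 and 14.3 CPM, against 52.2, 50.4 and 42.0 CPM in WT Wy and 45.9, 48.3 and 43.7 CPM in WT fenofibrate. The KO libraries held 12.8, 13 and 11.2 CPM on control diet, 11.9, 12.2 and 11.7 CPM with Wy, and 11.8, 10.9 and 9.83 CPM with fenofibrate. The 3 KO groups overlapped in part and all lay below WT control.

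Slc27a4 rose by 1.73 ± 0.09 on the log2 scale with Wy in WT (adjusted p = 5.28e-11, edgeR) and by 1.66 ± 0.09 with fenofibrate (adjusted p = 1.11e-10, edgeR). In KO the values were -0.04 and -0.19 (adjusted p = 0.851 and 0.345, edgeR). On control diet its difference of -0.24 ± 0.09 between KO and WT did not pass (adjusted p = 0.126, edgeR), although no KO control library reached the WT control range. Such separation held for 5 of the 7 genes and 29.8% of all genes in this comparison.

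Slc27a5, or FATP5, is a liver transporter that also activates bile acids for conjugation, and it was the only one of the 7 genes that fell in WT. It spans chr7:12988346-12998192 on the minus strand. The WT control libraries held 305, 342 and 340 CPM, against 159, 159 and 170 CPM in WT Wy and 159, 160 and 165 CPM in WT fenofibrate. The KO libraries held 298, 349 and 314 CPM on control diet, 272, 284 and 295 CPM with Wy, and 226, 281 and 271 CPM with fenofibrate. All 6 treated WT libraries lay below the other 12.

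The log2 fold change of Slc27a5 in WT was -1.01 ± 0.09 with Wy (adjusted p = 4.46e-08, edgeR) and -1.03 ± 0.09 with fenofibrate (adjusted p = 4.45e-08, edgeR). Plain library totals ended both calls, at -0.21 (adjusted p = 0.249) and -0.22 (adjusted p = 0.228), on a scale where the median gene stood at 0.79 and 0.82. The summed level of the hepatocyte markers was lower in the same 6 libraries, with 6 of 8 markers called lower with each drug, where 39.2% and 36.9% of all genes were called in either direction. Under plain totals only Serpina1a and Ttr of these 6 were still called lower, with log2 fold changes of -1.04 and -0.56 with Wy and -0.89 and -0.71 with fenofibrate, and Apoa1 was higher with Wy (0.45, adjusted p = 0.0116, edgeR). The part of these markers in the Slc27a5 values was not tested. In KO the values were -0.18 with Wy and -0.30 with fenofibrate (adjusted p = 0.379 and 0.099, edgeR). DESeq2 called the latter (-0.32, adjusted p = 0.0161), as did edgeR without library 2 of KO fenofibrate (-0.37, adjusted p = 0.0497). On control diet KO and WT differed by -0.04 (95% interval -0.22 to 0.15, adjusted p = 0.874, edgeR).

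Per kilobase of the deposited length, which allows levels of different genes to be compared, the Slc27a family summed in WT to 267 ± 11.3 CPM per kilobase on control diet (SD, n = 3), 371 ± 15.6 with Wy and 352 ± 9.74 with fenofibrate. In KO it summed to 224 ± 17.5, 209 ± 7.54 and 190.1 ± 19.7 on the same diets. Slc27a2 and Slc27a5 made up nearly all of it. In WT control they held 48.3% ± 1.21 and 50.4% ± 1.24 of the sum, in WT Wy 76.4% ± 0.613 and 17.9% ± 0.223, and in WT fenofibrate 76.3% ± 0.248 and 18.8% ± 0.299. In KO control they held 40.3% ± 0.690 and 58.4% ± 0.616.

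These shares are ratios within a library and do not depend on how libraries were scaled. In the treated WT livers Slc27a2 thus went from about the level of Slc27a5 to above it, while in the KO groups Slc27a5 stayed the larger share. The share of Slc27a1 in WT was 0.0667% ± 0.00471 on control diet, 2.68% ± 0.279 with Wy and 1.93% ± 0.144 with fenofibrate, and that of Slc27a4 was 1.24%, 2.96% and 2.97%. Slc27a3 and Slc27a6, the other family members, were below 0.05 CPM per kilobase in every group mean.

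**Figure D2:**
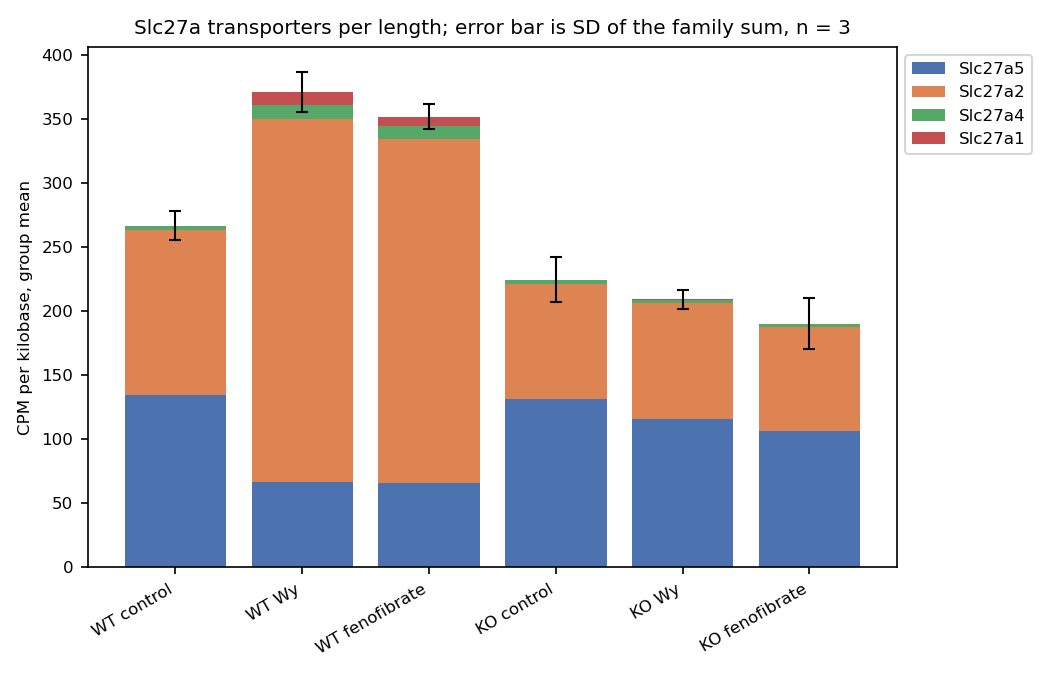
Mean level of 4 Slc27a genes in CPM per kilobase of deposited length, stacked, in the 6 groups. The error bar is the SD of the sum over 6 family genes (n = 3), of which Slc27a3 and Slc27a6 are too low to be drawn. The Slc27a2 portion is the larger in the treated WT groups and Slc27a5 in the 3 KO groups.

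Fabp1, the fatty acid binding protein of hepatocyte cytosol, spans chr6:71199827-71205023 on the plus strand and had by far the highest level of the 7 genes per kilobase, 3319 ± 247 CPM per kilobase in WT control. On the CPM scale the WT control libraries held 1965, 1693 and 1848 CPM, against 7668, 8039 and 8858 CPM in WT Wy and 7194, 5270 and 7016 CPM in WT fenofibrate. The KO libraries held 992, 1053 and 840 CPM on control diet, 815, 794 and 743 CPM with Wy, and 988, 1168 and 823 CPM with fenofibrate. The WT control libraries lay between the treated WT libraries above and the KO libraries below, with no overlap.

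Fabp1 rose 4.46-fold with Wy in WT (log2 fold change 2.16 ± 0.14, adjusted p = 7.01e-10, edgeR) and by 1.82 ± 0.14 on the log2 scale with fenofibrate (adjusted p = 7.41e-09, edgeR). In KO the values were -0.30 with Wy and 0.05 with fenofibrate (adjusted p = 0.339 and 0.914, edgeR). On control diet it was 1.91-fold lower in KO (log2 -0.93 ± 0.14, adjusted p = 0.000117, edgeR).

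Of the 7 genes, 4 were thus lower in KO than in WT on control diet and 0 higher, where 9.94% of all genes were called and 5.66% were called lower. The median over the 7 genes was -0.51 against -0.00 over all genes. Cd36, Fabp1 and Lpl kept their call under plain library totals and Slc27a2 did not. Slc27a1, whose rise with the drugs was the largest of the 7, was among the 3 that did not pass.

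**Figure D3:**
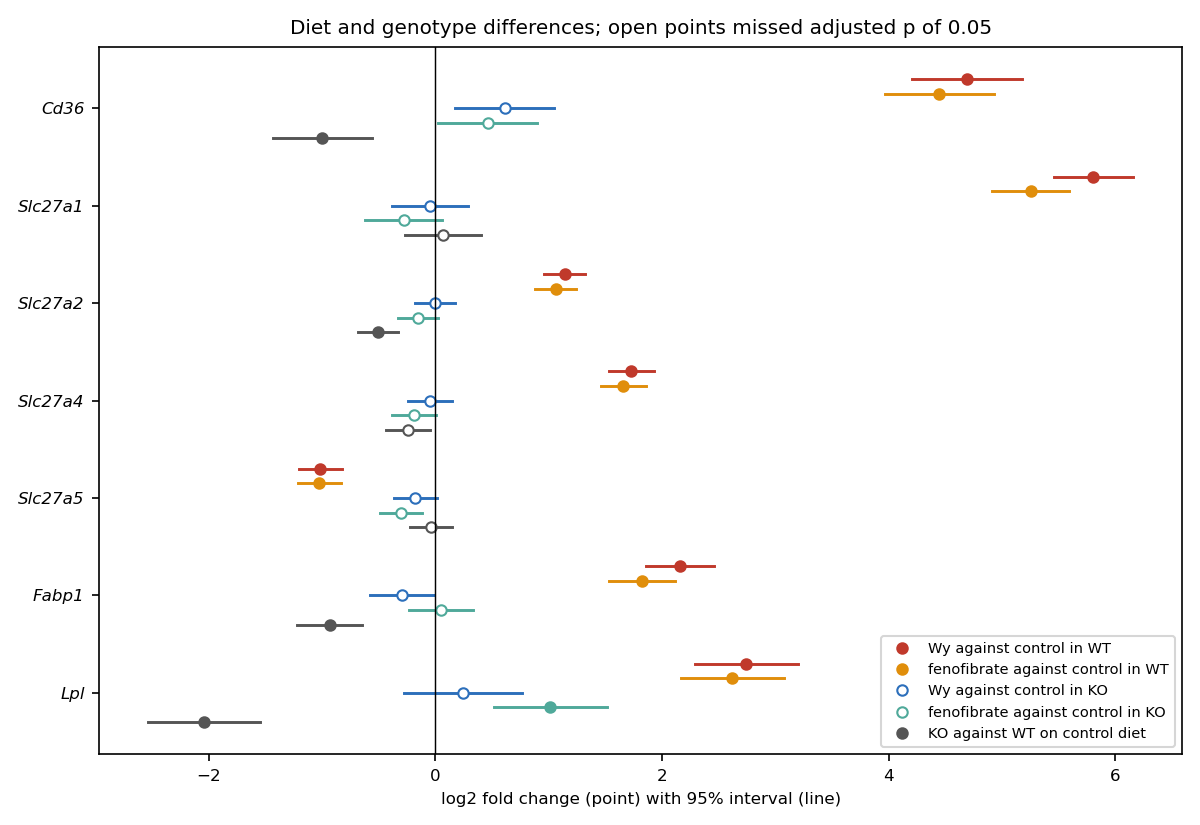
Log2 fold change (point) with its 95% interval (line) of the 7 genes for each drug diet against control diet in WT and in KO, and for KO against WT on control diet. Filled points passed an adjusted p of 0.05 (edgeR). The WT intervals with either drug lie far from 0 for all 7 genes, and most KO intervals are near or across 0.

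Within the same drug diet, all 7 genes differed between KO and WT. Under Wy 6 were lower in KO and Slc27a5 was higher, where 52.0% of all genes were called. The groups did not overlap for any of the 7, which held for 62.8% of all genes. The log2 differences ran from -5.79 ± 0.17 for Slc27a1 (adjusted p = 5.38e-15, edgeR) to -1.65 ± 0.09 for Slc27a2, and that of Slc27a5 was 0.80 ± 0.09 (adjusted p = 6.38e-07, edgeR). Under fenofibrate the counts were again 6 lower and 1 higher, where 47.0% of all genes were called and 48.7% had groups that did not overlap, as all 7 did. The log2 differences there ran from -5.47 ± 0.16 for Slc27a1 to -1.72 ± 0.09 for Slc27a2, with 0.68 ± 0.09 for Slc27a5 (adjusted p = 4.84e-06, edgeR). The Slc27a5 differences did not hold under plain library totals, at -0.04 and 0.25.

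The difference in response between genotypes was tested as the interaction of genotype and diet. All 7 genes passed with each drug, where 28.1% of all genes passed with Wy and 22.3% with fenofibrate. With Wy the interaction was -5.86 ± 0.22 for Slc27a1 (adjusted p = 2.1e-12, edgeR) and -4.08 ± 0.30 for Cd36 (adjusted p = 8.82e-09, edgeR), negative values meaning a lower response in KO. For Lpl the interaction was -2.50 ± 0.33 with Wy and -1.61 ± 0.32 with fenofibrate (adjusted p = 1.41e-05 and 0.00112, edgeR). The interaction of Slc27a5 had the opposite sign, 0.84 ± 0.13 with Wy, and it reversed to -0.32 under plain library totals without passing (adjusted p = 0.208). With fenofibrate it was 0.72 ± 0.13, and -0.04 under plain totals (adjusted p = 0.905).

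In order of level, WT Wy and WT fenofibrate were first and next for Cd36, Slc27a1, Slc27a2, Slc27a4, Fabp1 and Lpl, and last for Slc27a5. The libraries of these 2 groups did not overlap for Cd36, Slc27a1 and Fabp1 and overlapped for the other 4 genes. WT control came next for 5 of these 6 genes and stood apart from the neighbouring KO group for Slc27a2, Slc27a4, Fabp1 and Lpl, but overlapped KO Wy for Cd36. For Slc27a1 the order was KO control, KO Wy, WT control and KO fenofibrate, and WT control did not differ beyond its spread from the first 2 of these.

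Among the 7 genes the pair most alike in pattern was Slc27a2 and Slc27a4, with a root mean square difference of 0.239 in log2 CPM centred on each gene's mean over 18 libraries. Cd36 and Slc27a1 differed by 0.414. Over all tested genes, the 3 most like Cd36 were Spon2 (0.346), Cidec (0.346) and Crat (0.354), and those most like Slc27a1 were Slc39a5 (0.240), Lamb3 (0.268) and Cidec (0.307). Fabp1 was closest to Acot8 (0.169), with Eci1 (0.217) also near, and Lpl was closest to Pex11a (0.305), Me1 (0.307) and Hsdl2 (0.331). Slc27a2 was closest to Lpcat3 (0.0821), Acaa2 (0.106) and Psap (0.120), and Slc27a4 to Mmadhc (0.129), Ppp2r2d (0.156) and Hprt (0.164). Slc27a5 was closest to the plasma protein genes Gc (0.0855), Klkb1 (0.0961) and Afm (0.0979), whose log2 fold changes with Wy in WT were -0.83, -0.82 and -0.78. These distances describe the 18 libraries and carry no p-value.

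A wider list held 40 genes of lipid transport, lipid binding and lipolysis, with 4 enzymes of bile acid synthesis and conjugation among them (Baat, Acox2, Amacr and Hsd17b4). All were found, 32 were tested, Fabp12 was too low, and genes listed at 0 in every library included Fabp2, Fabp4, Fabp6, Fabp9, Pmp2 and Angptl8. Of these 6, only Fabp6 does not lie inside another counted locus, so the others may not have been measured. With Wy in WT, 11 of 32 rose and 10 fell, and with fenofibrate 10 rose and 11 fell, where 39.2% and 36.9% of all genes were called and 20.2% and 19.3% were higher. The median log2 fold changes of the list were -0.08 and 0.05. Under plain library totals these counts became 23 against 2 and 22 against 1, with medians of 0.72 and 0.85. On that scale 9700 of the 14241 genes tested were called higher with Wy and 10002 with fenofibrate. The medians of all genes there were 0.79 and 0.82. The balance of rises and falls in the list thus depends on the scaling, as it does for all genes.

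Hsd17b4, a peroxisomal enzyme of the oxidation of very long-chain and bile acid intermediates, had the smallest p of the list with both drugs. In WT it stood at 225 ± 18.7 CPM on control diet (SD, n = 3), 626 ± 21.3 with Wy and 577 ± 20.4 with fenofibrate, and rose by 1.47 ± 0.08 and 1.36 ± 0.08 (adjusted p = 4.57e-11 and 1.6e-10, edgeR). Vldlr, a receptor that takes up triglyceride-rich lipoproteins, went from 2.07 ± 0.443 CPM to 19.9 ± 1.80 with Wy and 16.3 ± 3.41 with fenofibrate. Its log2 fold changes were 3.27 ± 0.19 and 2.99 ± 0.19 (adjusted p = 1.1e-10 and 4.32e-10, edgeR). Dbi, the acyl-CoA binding protein, rose by 1.78 ± 0.11 and 1.55 ± 0.11, and Cd9, a tetraspanin, by 1.02 ± 0.11 and 1.14 ± 0.11.

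Apoc3, an inhibitor of lipoprotein lipase, fell by 1.44 ± 0.14 on the log2 scale with Wy (adjusted p = 1.16e-07, edgeR) and by 1.33 ± 0.14 with fenofibrate. Apoc3 kept a fall of -0.64 with Wy in WT under plain library totals (adjusted p = 0.000257, edgeR). On that scale it was also lower with Wy in KO (-0.63, adjusted p = 0.013, edgeR). The median of all genes there was 0.79 in WT and -0.33 in KO. Of the 11 lipase partners tested, 2 rose and 5 fell with Wy, and 1 rose and 6 fell with fenofibrate, against the same 39.2% and 36.9% of all genes called. Lipc, Apoc2, Apoe, Scarb1, Scp2 and Lsr fell with both drugs but had a positive sign under plain totals. Baat, which joins bile acids to taurine and glycine, fell by 0.98 ± 0.13 with Wy and 0.66 ± 0.13 with fenofibrate, and plain totals ended both calls, at -0.17 with Wy and 0.14 with fenofibrate (adjusted p = 0.287 and 0.376). Fabp3, the heart-type binding protein, was named after its values were seen, as were Baat and the 6 genes before it: it went in WT from 0.0208 ± 0.00231 CPM to 1.10 ± 0.361 with Wy and 0.514 ± 0.269 with fenofibrate (adjusted p = 7.19e-07 and 2e-05, edgeR).

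In KO, 0 of the 32 genes were called with Wy, and Scarb1, Apoa5 and Apoe were lower with fenofibrate, with log2 fold changes of -0.42 ± 0.08, -0.56 ± 0.13 and -0.43 ± 0.10 (adjusted p = 0.0113, 0.0353 and 0.0348, edgeR). The share of all genes called was 0.239% with Wy and 1.54% with fenofibrate. Plain totals ended these 3 calls, at -0.38, -0.52 and -0.37 (adjusted p = 0.414, 0.134 and 0.469). With Wy in KO, plain totals called 2980 of the 14241 genes tested, 24 of them higher, and the median of all genes stood at -0.33. Of the 32 genes, 12 were called lower there. Among those 12 were Dbi (-0.77, adjusted p = 0.0057) and Vldlr (-0.90, adjusted p = 0.0165). With fenofibrate DESeq2 called 5 of the 32. Scarb1 and Apoe were lower with fenofibrate in WT too, at -0.65 ± 0.08 and -0.64 ± 0.10, calls that also did not hold under plain totals (0.17 for each). Cd9 had the next smallest p with fenofibrate, at 0.44 ± 0.11 (adjusted p = 0.0588, edgeR). At an unadjusted p under 0.05, edgeR gave 5 genes with Wy in KO, and DESeq2 called 1. The smallest p-values with Wy were those of Dbi (-0.41 ± 0.11), Vldlr (-0.55 ± 0.18), Acox2, a peroxisomal oxidase of bile acid intermediates (0.36 ± 0.14), and Apoe (-0.23 ± 0.10), with adjusted p-values of 0.113, 0.185, 0.268 and 0.303 (edgeR).

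On control diet 2 of the 32 were higher in KO than in WT and 7 lower, where 9.94% of all genes were called and 5.66% were lower. Under plain totals 3 were higher and 5 lower, where 2731 of the 14241 genes tested were called and 2431 were higher. Mfsd2a, a transporter of lysophosphatidylcholine, had the largest difference, from 52.2 ± 4.12 CPM in WT control to 3.00 ± 1.56 in KO control (log2 -4.12 ± 0.38, adjusted p = 5.3e-07, edgeR). Its values with the drugs in WT did not pass, at 0.45 ± 0.33 with Wy and 0.26 ± 0.33 with fenofibrate (adjusted p = 0.296 and 0.573, edgeR), but did under plain totals, at 1.26 and 1.09 (adjusted p = 0.00287 and 0.00815). Hsd17b4 was lower in KO by -1.18 ± 0.08 (adjusted p = 9.43e-09, edgeR), Acbd5, a peroxisomal acyl-CoA binding protein, by -0.86 ± 0.09, and Lipg, the endothelial lipase, by -1.43 ± 0.15. Vldlr was higher, at 3.98 ± 0.539 CPM in KO control (log2 0.95 ± 0.18, adjusted p = 0.00186, edgeR).

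**Figure D4:**
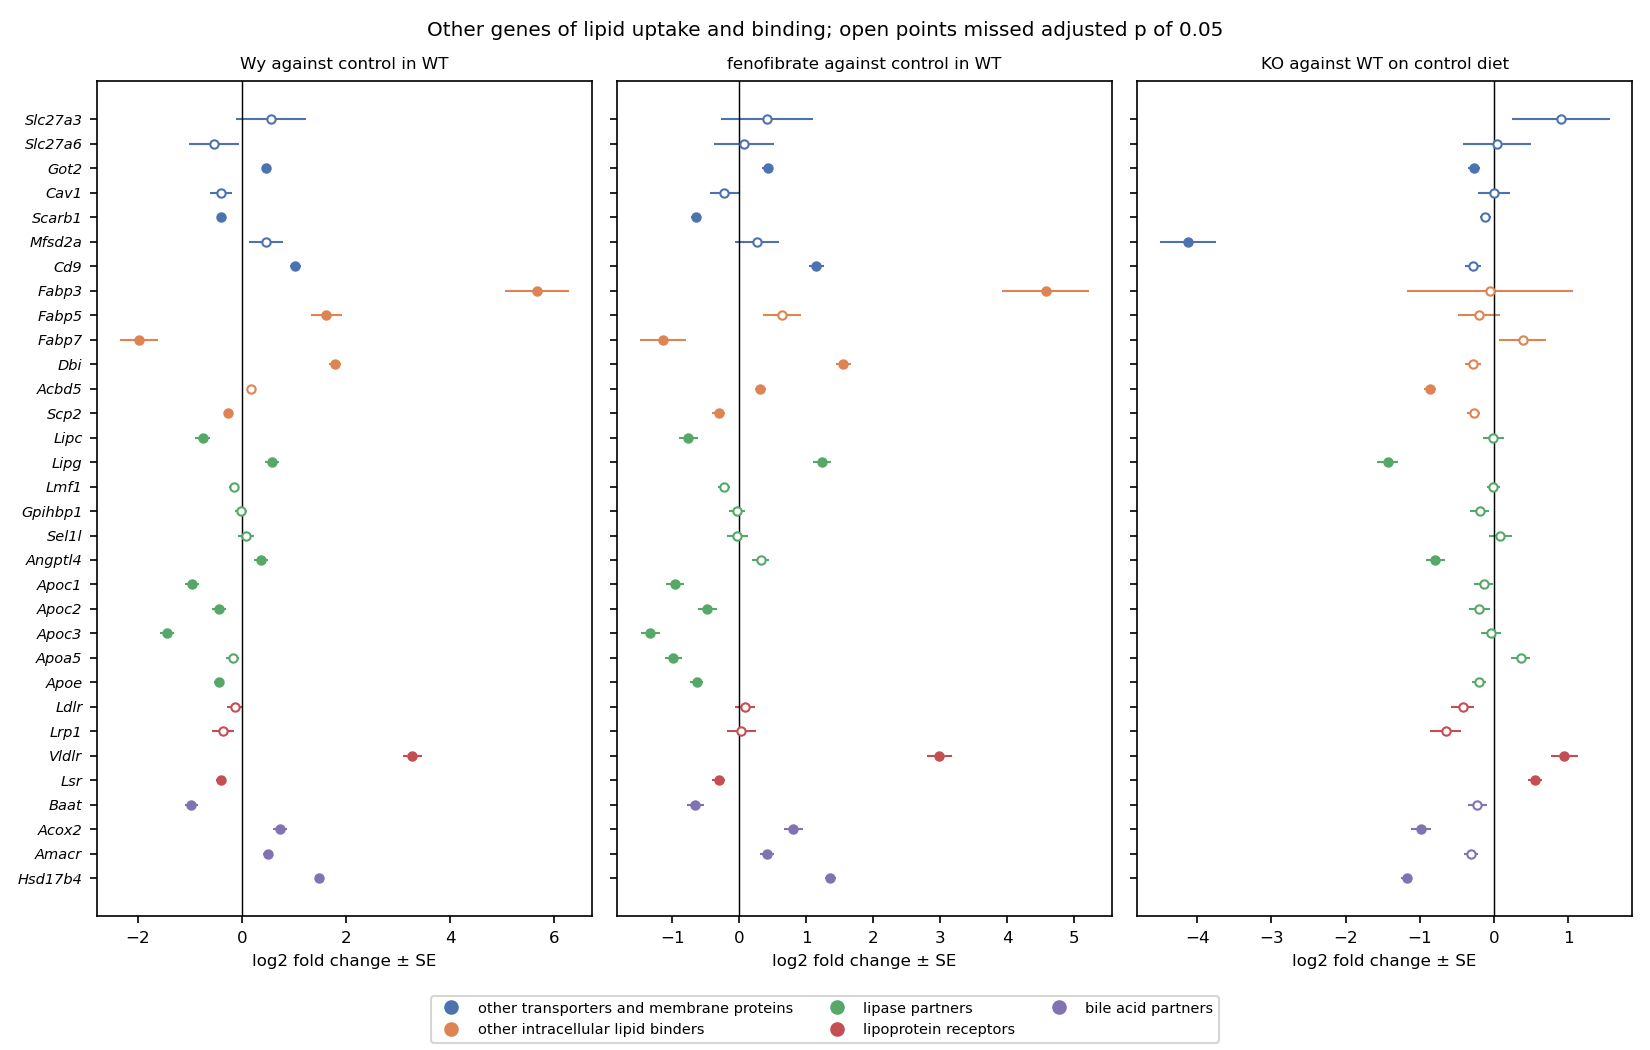
Log2 fold change with SE of the 32 tested genes of the wider list, coloured by role, with each drug in WT and for KO against WT on control diet. Filled points passed an adjusted p of 0.05 (edgeR). Vldlr, Dbi and Hsd17b4 lie to the right with both drugs, and Mfsd2a lies far to the left in KO on control diet.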

How the data were processed

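RNA was measured in 18 libraries of pooled mouse liver with a stranded mRNA kit, per the labels' protocols. The submitters' processing notes name Picard 1.84, TopHat2 2.0.8, Trimmomatic 0.30 and bcl2fastq 2.17, with the mm10 build. The deposited values are raw read counts per locus, per the file headers, and the authors' counting tool, strand setting and overlap rule were not given in the sources used here. Libraries were joined by locus, because the order of loci differs between files. Of the loci, 21364 without a gene identifier were not analysed. Further, 12 blank or total lines were dropped, as were 5 columns of reads whose names match none of the samples.

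The test was that of edgeR 4.0.16 (R 4.3.3) (filterByExpr, TMM, one quasi-likelihood fit with 6 group coefficients and no block, 12 residual degrees of freedom, Benjamini-Hochberg over 14241 genes, threshold 0.05). The SE is the log2 fold change divided by the square root of F. The scripts were tested on simulated data. The 9 comparisons were each drug diet against control diet in each genotype, KO against WT on each diet, and the interactions of genotype with each drug. Alternatives were DESeq2 1.42.0, other scalings and filters, leaving out each library, and a replicate block. All 7 genes are counted in each comparison. For KO against WT under each drug only the range of the 6 lower genes and Slc27a5 are given by value. The 4 smallest p-values of the wider list are given in the comparisons described for it. The genes and lists were chosen with earlier results of these data known. Nothing in the labels says that the pools of a group came from separate experiments, so p-values measure the spread between pools. Some genes of the lists are not reported here.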

Additional observations from a re-analysis of the deposited data

Results flagged for a closer look

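The effect of each drug differed between WT and KO for all 7 genes by the test of the interaction itself, and every difference given here is a log2 value, KO minus WT (edgeR quasi-likelihood F-test, 3 libraries a group). With Wy the values were -4.08 for Cd36, -5.86 for Slc27a1, -1.14 for Slc27a2, -1.77 for Slc27a4, 0.84 for Slc27a5, -2.45 for Fabp1 and -2.50 for Lpl, and the minus-strand locus named Slc27a2 stood at -1.13. With fenofibrate they were -3.98 for Cd36, -5.53 for Slc27a1, -1.21 for Slc27a2, -1.85 for Slc27a4, 0.72 for Slc27a5, -1.78 for Fabp1 and -1.61 for Lpl, with -1.31 for the minus-strand locus. Adjusted p-values of the 7 genes ran from 2.1e-12 for Slc27a1 to 6.64e-05 for Slc27a5 with Wy, and from 8.91e-12 for Slc27a1 to 0.00112 for Lpl with fenofibrate (edgeR). Of all genes tested, 28.1% passed the interaction test with Wy and 22.3% with fenofibrate. The values of Slc27a5 did not hold under plain library totals. There they were -0.32 with Wy and -0.04 with fenofibrate (adjusted p = 0.208 and 0.905, edgeR).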

How the results depend on the processing

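The number of the 7 genes called stayed within 1.5 times its value in 7 of the 9 comparisons under every alternative run. With Wy in KO it was 0, and 2 under plain library totals, which added Slc27a5 (-0.53, adjusted p = 0.0267) and Fabp1 (-0.63, adjusted p = 0.0193, edgeR). On that scale 2980 of the 14241 genes tested were called with Wy in KO, and the median of all genes was -0.33. With fenofibrate in KO the number of the 7 genes called was 1, 2 with DESeq2, 0 with the compared groups alone, and 0 to 2 when single libraries were left out. Plain totals reversed Lpl and the minus-strand Slc27a2 locus with Wy in KO (-0.11 and -0.31), Slc27a4 and Slc27a5 in KO against WT on control diet (0.0844 and 0.29), Slc27a5 in KO against WT under Wy (-0.0364) and both interactions of Slc27a5 (-0.32 and -0.0369). Slc27a2 with Wy in KO was 0.000828 when genes under 1 CPM in 3 libraries were dropped. Single omissions also reversed values near 0: with Wy in KO, Slc27a1 ranged from -0.20 to 0.0785, Slc27a2 from -0.0614 to 0.0494 and the minus-strand locus from -0.0174 to 0.0762. Fabp1 with fenofibrate in KO ranged from -0.0913 to 0.17, and on control diet Slc27a1 ranged from -0.0553 to 0.22 and Slc27a5 from -0.11 to 0.0117. Where a value is not explained by fewer libraries or genes, the cause was not tested. A replicate block changed no call: 7 genes were called with each drug in WT, 0 and 1 in KO and 4 on control diet. Libraries of the same number were not treated as pairs. Of 45 same-number pairs, 13 correlated over 0.1 (median r = 0.0373), and 8 of 18 libraries were closest to their own number. Library 1 held the highest Mup share of its group except in KO Wy. Whether libraries of the same number shared a factor was not tested further. Levels near 1 CPM, as for Lpl in KO, rest on about 97 to 304 counts a library.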
